A study of Homo sapiens with 4 samples.

Results

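The RNA levels of 10 genes of the RB axis were read from gene expression values of WT cells and ZCCHC4 KO1 cells, both without drug treatment. The genes are the cyclin-dependent kinase (CDK) inhibitors CDKN2A, CDKN2B, CDKN2C, CDKN1A and CDKN1B, the kinases CDK4 and CDK6, the D-type cyclin CCND1 and the pocket proteins RB1 and RBL1. They were found by their Entrez identifiers, and all 10 were among the 16658 genes of the table. The genes were chosen by name with their FPKM values in both groups known, so the levels and differences of these 10 genes are given as a description without a test. WT cells are unedited cells labelled HepG2, a line established from a human liver tumor, and ZCCHC4 KO1 cells are a line made from them with CRISPR/Cas9. Each group has 2 libraries, 4 in all, from 1 knockout line, and the labels do not say whether the 2 libraries of a group came from separate cultures. The p-values given for other genes therefore measure only the spread between these libraries, which may be technical.

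Progression from G1 into S phase is governed by the pocket proteins RB1, RBL1 and RBL2, which hold back the E2F transcription factors. D-type cyclins activate CDK4 and CDK6, which phosphorylate RB1 and release E2F, and E2F in turn drives genes of DNA synthesis. The INK4 inhibitors, CDKN2A to CDKN2D, bind CDK4 and CDK6. The CIP/KIP inhibitors, CDKN1A to CDKN1C, act mainly on CDK2 bound to cyclin E or cyclin A. In liver cancer, CDKN2A is often silenced by methylation or lost, and CCND1 is amplified in some tumors.

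Values are FPKM (fragment counts scaled to transcript length and to the library total), a scale meant for setting levels of different genes side by side. They summed to between 512417 and 565199 per library, and since FPKM carries no read totals the depth is unknown. A trend on GC content that differed between the libraries, given below, can shift ratios between genes of unlike GC content. ZCCHC4, the targeted gene, encodes a methyltransferase of ribosomal RNA. It was at 7.22 and 5.44 FPKM in WT cells and at 1.08 and 2.29 in ZCCHC4 KO1, so each knockout library was lower than each WT library. Of 12 hepatocyte markers 7 were listed, none reached an FPKM of 1 in any library, and they summed to between 0.12 and 0.26 FPKM per library. The label of a liver line is therefore not borne out by these markers. The study states that its cells were authenticated by short tandem repeat profiling. AFP, HNF4A and SERPINA1 were all at or under 0.08 FPKM. Differences are given on the log2(FPKM + 1) scale, which understates those of genes with low values, and were computed with limma for the 10726 genes with at least 2 libraries at an FPKM of 1 or more.

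CDKN2A was the most abundant of the 10 genes in every library. It encodes p16INK4a, an INK4 inhibitor, and from a separate first exon p14ARF, which binds MDM2 and protects p53. CDKN2A was at 369.33 and 422.34 FPKM in WT cells and at 568.77 and 487.16 in ZCCHC4 KO1. The WT mean of 396.0 ± 37.5 FPKM (SD, n = 2) ranked 184th of the 10726 tested genes and lay above 98.3 percent of them. Both ZCCHC4 KO1 libraries were above both WT libraries, with a mean of 528.0 ± 57.7 FPKM (SD, n = 2) and a ratio of the means of 1.33. The log2 difference was 0.41 (standard error 0.157). It was positive under all 13 alternatives and lay between 0.30 and 0.53 when each library was left out in turn. With the trend on GC content removed from each library it was 0.29 (standard error 0.086). Changes of the filter, the variance prior or the pairing cannot alter the difference. Since the groups do not overlap, leaving out a library could not change its sign either. The gene lies on the minus strand of chromosome 9 of GRCh38 from 21967752 to 21995324. The p16INK4a transcript begins with an exon 1 at 21974678 to 21974857, the p14ARF transcript with an exon 1 at 21994139 to 21994392. Both go on with exon 2 (21970902 to 21971208) and exon 3 (21967752 to 21968242). The table holds 1 value per gene, so RNA for p16INK4a and for p14ARF cannot be told apart. Exons of the antisense RNA gene CDKN2B-AS1 cover 593 of the 3885 exon bases of CDKN2A, and whether reads were counted by strand is not given in the sources used here. The 250 bases before the start of the p16INK4a transcript lie at chr9:21974858-21975107 on the minus strand (GRCh38.p14, RefSeq). They are shown for the gene with the highest level of the axis, and the part of its RNA that starts here is unknown. A further window, before the outer start of the gene at chr9:21995325-21995574, held 0 GC boxes and is not shown. Capitals mark GC boxes (GGGCGG on either strand).
CDKN2A: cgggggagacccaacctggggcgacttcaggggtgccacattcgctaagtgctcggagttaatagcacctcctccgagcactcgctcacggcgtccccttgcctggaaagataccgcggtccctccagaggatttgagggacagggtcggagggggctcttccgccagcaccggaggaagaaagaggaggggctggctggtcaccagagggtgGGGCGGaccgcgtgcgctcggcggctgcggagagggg

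CDKN2B, which encodes the INK4 inhibitor p15 and lies next to CDKN2A on chromosome 9 from 22002903 to 22009313, was at 8.03 and 7.15 FPKM in WT cells and at 6.20 and 8.65 in ZCCHC4 KO1. The groups overlapped. The log2 difference of CDKN2B was -0.04 (standard error 0.221) and changed sign under 4 of 13 alternatives. CDKN2A exceeded CDKN2B by a factor of 46.0 and 59.1 in the WT libraries and of 91.7 and 56.3 in the ZCCHC4 KO1 libraries. The genes share sequence. Of the 929 windows of 50 bases in the p16INK4a transcript, 3.34 percent occur in CDKN2B as well. Reads wholly within such windows match both genes, and their part in the low value of CDKN2B beside the high one of CDKN2A was not tested.

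CDKN2C, which encodes the INK4 inhibitor p18 and lies on chromosome 1 from 50960745 to 50974634, was the next most abundant inhibitor. It was at 50.45 and 54.62 FPKM in WT cells and at 56.21 and 52.51 in ZCCHC4 KO1, with overlapping groups and a log2 difference of 0.05 (standard error 0.131). CDKN2D, the remaining INK4 gene, was at 3.94 and 4.97 FPKM in WT cells and at 4.86 and 4.32 in ZCCHC4 KO1. Its groups overlapped too, and neither CDKN2D nor CDKN1C, the inhibitors that complete both families, was called by limma. The 4 INK4 genes together reached 431.75 and 489.08 FPKM in WT cells and 636.04 and 552.64 in ZCCHC4 KO1. CDKN2A made up 85.5 and 86.4 percent of that sum in WT cells and 89.4 and 88.2 percent in ZCCHC4 KO1.

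CDKN1A, which encodes p21, had the largest difference of the 10 genes over all 4 libraries. It was at 20.25 and 21.53 FPKM in WT cells and at 12.28 and 8.14 in ZCCHC4 KO1. The knockout libraries were the lowest of the 4, and the mean went from 20.9 ± 0.905 to 10.2 ± 2.93 FPKM (SD, n = 2 each). The log2 difference was -0.99 (standard error 0.223). It stayed negative under all 13 alternatives, lay between -1.26 and -0.72 with 1 library left out, and was -1.09 (standard error 0.145) with the GC trend removed. Here too the filter, the variance prior and the pairing cannot alter the difference. Leaving out a library could not change its sign, since the groups do not overlap. FPKM values are shares of all RNA in a culture, so less CDKN1A RNA per cell and fewer cells that express it cannot be told apart. The 20 nearest tested genes, 10 on each side along chromosome 6, had a median log2 difference of -0.275, with 18 of 20 below 0. Over all 10726 tested genes 5708 were below 0. The part of the neighbours in the value of CDKN1A was not tested. CDKN1A lies from 36676463 to 36687332. The 250 bases before the start given for it by the RefSeq promoter table, which lies within this range, at chr6:36678464-36678713 on the plus strand (GRCh38.p14, RefSeq), are shown for the gene with the largest difference. Capitals mark GC boxes, the last 2 of which overlap.
CDKN1A: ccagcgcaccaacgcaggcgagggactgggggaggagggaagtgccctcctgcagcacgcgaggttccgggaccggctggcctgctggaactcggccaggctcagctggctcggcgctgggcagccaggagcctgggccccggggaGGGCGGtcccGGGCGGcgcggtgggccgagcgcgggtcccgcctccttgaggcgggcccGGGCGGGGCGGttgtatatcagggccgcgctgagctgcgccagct

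CDKN1B, which encodes p27 and lies on chromosome 12 from 12717368 to 12722369, was at 24.67 and 19.00 FPKM in WT cells and at 14.73 and 19.36 in ZCCHC4 KO1. The ranges overlapped narrowly, by 1 library of each group. The log2 difference of CDKN1B was -0.34 (standard error 0.211), negative under all 13 alternatives. Those that change the filter, the variance prior or the pairing cannot alter it. CDKN1C, which encodes p57, was at 4.75 and 5.91 FPKM in WT cells and at 6.44 and 5.54 in ZCCHC4 KO1. The 3 CIP/KIP genes summed to 49.67 and 46.44 FPKM in WT cells and to 33.45 and 33.04 in ZCCHC4 KO1. CDKN1A supplied 40.8 and 46.4 percent of this sum in WT cells and 36.7 and 24.6 percent in ZCCHC4 KO1. The sum was thus lower in both ZCCHC4 KO1 libraries, whereas the INK4 sum was higher in both. This contrast rests mainly on CDKN1A and CDKN2A. The groups overlapped for each of the other genes in both sums.

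**Figure D1:**
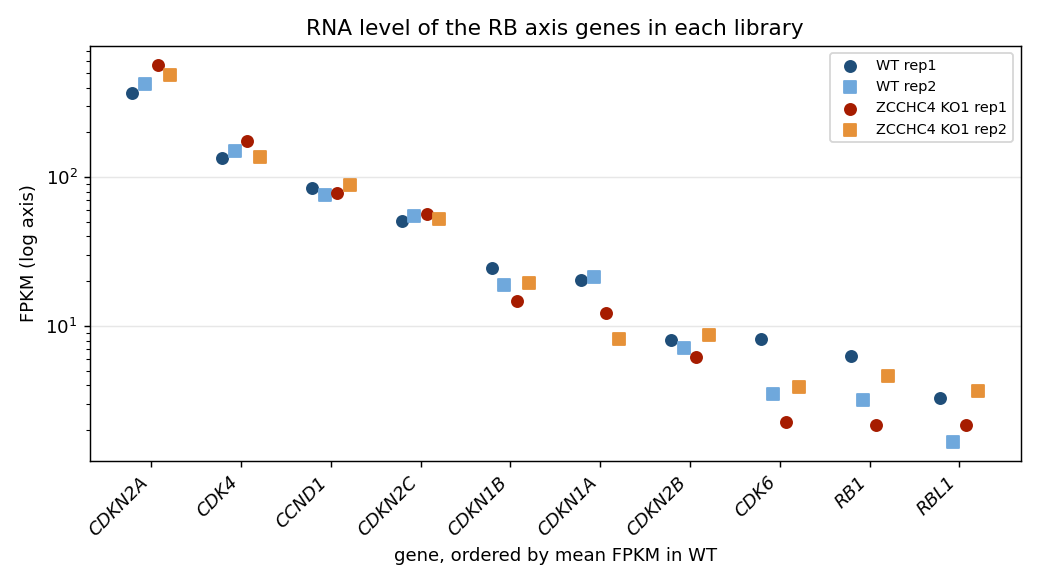
FPKM on a log axis for each of the 10 genes, ordered by the WT mean, with 1 point per library (circles replicate 1, squares replicate 2). CDKN2A stands at the top in all 4 libraries, from 369.33 to 568.77, and only CDKN2A and CDKN1A have groups that do not overlap.

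Among the kinases, CDK4 was far above CDK6. CDK4 lies on chromosome 12 from 57747727 to 57752310 and CDK6 on chromosome 7 from 92604921 to 92836573. CDK4 was at 135.20 and 150.42 FPKM in WT cells and at 173.95 and 137.69 in ZCCHC4 KO1. The groups overlapped, and the log2 difference of CDK4 was 0.12 (standard error 0.162). Exons of TSPAN31 on the other strand cover 1369 of the 3094 exon bases of CDK4, so its value may hold reads of that gene if strand was not used. CDK6 was at 8.22 and 3.52 FPKM in WT cells and at 2.26 and 3.90 in ZCCHC4 KO1. WT replicate 1 stood above the other 3 libraries, and WT replicate 2 lay between the ZCCHC4 KO1 libraries. The log2 difference of CDK6 was -0.69 (standard error 0.395), and without WT replicate 1 it was -0.18. CDK4 supplied 94.3 and 97.7 percent of the summed FPKM of CDK4 and CDK6 in WT cells and 98.7 and 97.2 percent in ZCCHC4 KO1.

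CCND1, the D-type cyclin on chromosome 11 from 69641156 to 69654474, was at 84.11 and 75.47 FPKM in WT cells and at 78.05 and 88.82 in ZCCHC4 KO1. The groups overlapped. The log2 difference of CCND1 was 0.06 (standard error 0.14) and -0.09 (standard error 0.205) with the GC trend removed. Of the other D-type cyclins, CCND2 was at 0 in both WT libraries and at 0.02 and 0 in ZCCHC4 KO1, and CCND3 was at 102.46 and 112.62 in WT cells and at 55.77 and 46.18 in ZCCHC4 KO1. CCND3 fell by 1.07 ± 0.15 (standard error) on the log2 scale, at an adjusted p of 0.0195 (limma, Benjamini-Hochberg). CCND3 was the more abundant D-type cyclin in both WT libraries, and CCND1 was in both ZCCHC4 KO1 libraries. CCND1 made up 45.1 and 40.1 percent of the summed D-cyclin FPKM in WT cells and 58.3 and 65.8 percent in ZCCHC4 KO1, while the sum went from 186.57 and 188.09 to 133.84 and 135.00.

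In WT cells the pocket proteins had the lowest RNA levels of the 10 genes. RB1, the retinoblastoma gene on chromosome 13 from 48303751 to 48481890, was at 6.32 and 3.2 FPKM in WT cells and at 2.15 and 4.59 in ZCCHC4 KO1. Replicate 1 was the higher library in WT cells and the lower one in ZCCHC4 KO1, so the groups overlapped. The log2 difference of RB1 was -0.40 (standard error 0.386). It shrank to -0.001 when WT replicate 1 was left out and to 0.01 when ZCCHC4 KO1 replicate 1 was. RBL1, which encodes p107 and lies on chromosome 20 from 36996349 to 37095997, was at 3.30 and 1.67 FPKM in WT cells and at 2.17 and 3.64 in ZCCHC4 KO1. The groups overlapped, and the log2 difference of RBL1 was 0.18 (standard error 0.316), with the opposite sign without WT replicate 2 or without ZCCHC4 KO1 replicate 2. The ratio of CDKN2A to RB1 was 58.4 and 132.0 in WT cells and 265.0 and 106.0 in ZCCHC4 KO1. The GC content is 61.3 percent for CDKN2A and 39.5 percent for RB1, and the part of the GC trend in these ratios was not tested. A search for the E2F motifs TTTGGCGC, TTTCCCGC and TTTCGCGC on both strands covered 13 upstream windows of 250 bases from RefSeq for 9 of the 10 genes. CCND1 was not matched, and windows before starts within a gene's range, as for RB1 and CDKN1A, lie inside the gene. RBL1 alone had matches, with 1 of TTTCGCGC and 1 of TTTGGCGC, against 2.32 percent of all 35116 windows with any of the 3 motifs. A GC box was found in 8 of the 13 windows and in 42.6 percent of all windows. The window of RBL1, at chr20:37095998-37096247 on the minus strand (GRCh38.p14, RefSeq), is shown for these matches, in capitals, which are a description of the letters and not evidence of binding.
RBL1: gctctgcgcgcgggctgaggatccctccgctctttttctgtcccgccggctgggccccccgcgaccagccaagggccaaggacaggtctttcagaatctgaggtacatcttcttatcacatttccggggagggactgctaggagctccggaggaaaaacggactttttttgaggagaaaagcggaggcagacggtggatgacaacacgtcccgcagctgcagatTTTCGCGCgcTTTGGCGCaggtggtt

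In WT the mean levels ran in the order CDKN2A, CDK4, CCND1, CDKN2C, CDKN1B, CDKN1A, CDKN2B, CDK6, RB1 and RBL1. The ranges of neighbours in this order did not overlap from CDKN2A down to CDKN1B, nor between CDKN1A and CDKN2B. They overlapped between CDKN1B and CDKN1A, CDKN2B and CDK6, CDK6 and RB1, and RB1 and RBL1, so the order within these pairs is not larger than the spread. CDKN2A was 2.77 times CDK4, and CDK4 was 1.79 times CCND1. Within each library, CDKN2A was 2.58 and 2.74 times the sum of CDK4 and CDK6 in WT cells and 3.23 and 3.44 times in ZCCHC4 KO1. These ratios did not overlap between the groups, and neither did the FPKM values of 51.6 percent of all tested genes. CDKN2A was chosen with its values known and enters each ratio, so nothing further is read from them.

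**Figure D2:**
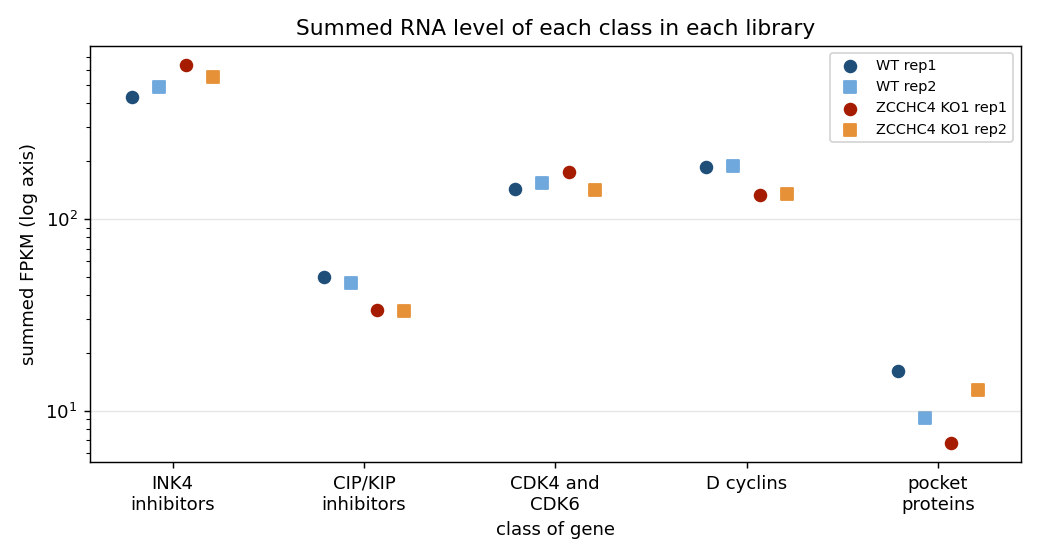
Summed FPKM on a log axis for the INK4 inhibitors, the CIP/KIP inhibitors, CDK4 with CDK6, the D-type cyclins and the pocket proteins RB1, RBL1 and RBL2, with 1 point per library. The CIP/KIP and D-cyclin sums of the ZCCHC4 KO1 libraries lie below those of WT, the INK4 sums lie above, and the CDK4 with CDK6 and pocket protein sums overlap.

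At an adjusted p under 0.05 from limma, 0 of the 10 genes were called, beside 5.98 percent of all tested genes, and 2 of the 10 had an unadjusted p under 0.05. Groups that did not overlap were found for 2 of the 10, beside 51.6 percent of all tested genes. In 1 of these the knockout was higher (23.1 percent of all tested genes) and in 1 it was lower (28.5 percent). At the thresholds of the study, which ask for an FDR under 0.001 and a fold change of at least 2, 0 of the 10 were called, beside 0.0746 percent. That share is 8 genes with limma. The study, with a test that it does not name, reports far more genes for ZCCHC4 KO1 against WT at these thresholds. Since the 10 genes were chosen by their values, nothing is read from these counts. The median log2 difference of the 10 genes was 0.004, and that of all tested genes was -0.029.

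**Figure D3:**
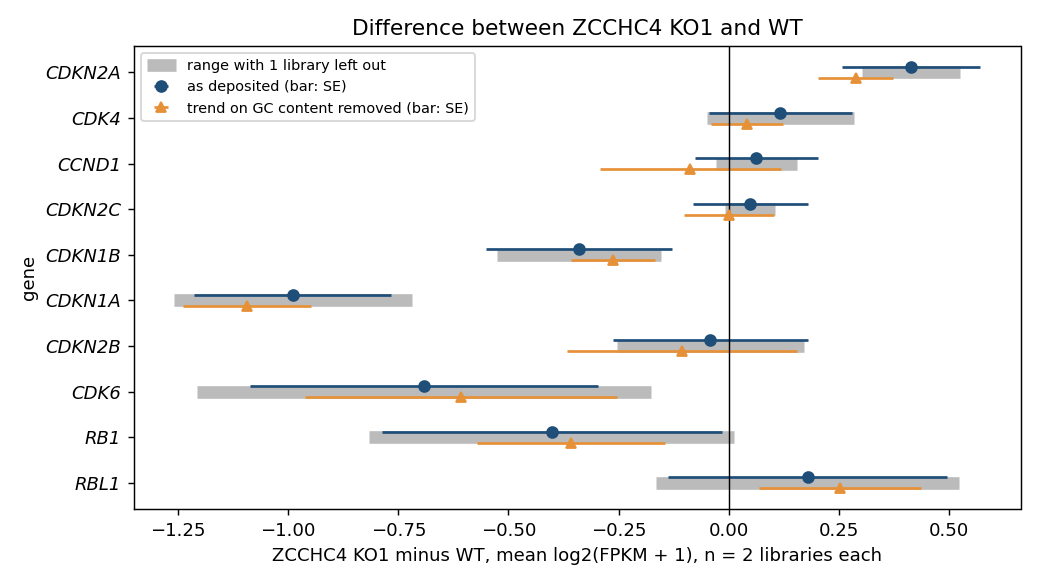
ZCCHC4 KO1 minus WT on the log2(FPKM + 1) scale for the 10 genes, as deposited (circles) and with the trend on GC content removed (triangles), with bars of 1 standard error and grey bars for the range when 1 library is left out. CDKN2A stays above 0 and CDKN1A, CDKN1B and CDK6 stay below 0 in all of these, while the other ranges reach 0.

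The spread between libraries of a group followed the GC content of the transcripts. Across 10559 tested genes with a GC value, the Spearman correlation of GC content with the difference of replicate 2 from replicate 1 was 0.715 in WT cells and -0.778 in ZCCHC4 KO1. These are correlations across genes, which are not independent. The 4 genes of the axis under the median GC content of 49.8 percent, namely CDKN1B, RB1, RBL1 and CDK6, were all lower in replicate 2 of WT and all higher in replicate 2 of ZCCHC4 KO1. RB1, at 39.5 percent GC, was 0.506 times as high in WT replicate 2 as in replicate 1 and 2.13 times as high in ZCCHC4 KO1 replicate 2. RBL1, at 40.7 percent, had the factors 0.506 and 1.68. CDKN2A, at 61.3 percent, had the factors 1.14 and 0.857. CDKN2B and CCND1 went against the other GC-rich genes, with factors of 0.89 and 1.40 and of 0.897 and 1.14. With the GC trend removed, the standard error fell from 0.386 to 0.214 for RB1 and from 0.316 to 0.184 for RBL1, and it was 0.354 for CDK6 in place of 0.395. It rose from 0.221 to 0.26 for CDKN2B and from 0.14 to 0.205 for CCND1, and fell for the remaining genes of the axis.

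Genes around the axis were taken from 10 lists with 149 genes, written with earlier results of these data known. Of these genes 148 were in the table and 143 were tested. Of the 143, limma called 1 higher and 9 lower, where 1.5 percent of all tested genes were called higher and 4.48 percent lower. With the GC trend removed the counts were 4 and 29, where 6.8 percent of all tested genes were called higher and 12.6 percent lower. The median log2 difference was -0.175 over the 143 genes and -0.03 over all tested genes.

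E2F-regulated genes of S phase held 4 of the 9 lower calls. MCM6, a subunit of the replicative helicase, fell from 42.49 and 39.32 FPKM in WT cells to 13.74 and 19.60 in ZCCHC4 KO1 (log2 fold change -1.26, standard error 0.2, adjusted p = 0.0263 from limma). RRM2, the small subunit of ribonucleotide reductase, fell from 109.38 and 105.07 to 49.21 and 61.11 FPKM (log2 fold change -0.95, adjusted p = 0.0264 from limma), and lost the call without WT replicate 1 (adjusted p = 0.0623). GINS1, part of the same helicase complex as MCM6, fell from 21.64 and 24.16 to 10.71 and 11.95 FPKM (adjusted p = 0.0319 from limma), and was not called without WT replicate 1 (adjusted p = 0.141) or WT replicate 2 (adjusted p = 0.276). MCM4 was the fourth, at 117.14 and 113.67 in WT cells and 59.79 and 72.53 FPKM in ZCCHC4 KO1 (adjusted p = 0.0378 from limma), and is named after its values were seen. MCM4 lost the call under 6 of the 13 alternatives, among them without either WT library (adjusted p = 0.176 and 0.123). Of the 26 genes of this list 24 had a difference below 0, with a median of -0.50, where 5708 of all 10726 tested genes were below 0. In 19 the WT and knockout libraries did not overlap and the knockout was lower, where 28.5 percent of all tested genes were. None was called higher. With the GC trend removed, 13 were called lower, where 12.6 percent of all tested genes were, and the median was -0.47. Of 10 proliferation markers, 0 were called and the median was 0.03, with 3 lower and 1 higher without overlap of the groups and 2 at an unadjusted p under 0.05. With the GC trend removed 2 were called lower.

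Of 18 further genes for RBL2, the E2F and DP factors and subunits of the DREAM complex, 0 were called, with 4 at an unadjusted p under 0.05, and the median was -0.22. With the GC trend removed 1 was called higher and 2 lower, where 6.8 and 12.6 percent of all tested genes were. Among 9 tested cyclins and kinases of G1 and S phase outside the 10 genes, CCND3 was the 1 call. CCNE1 and CDK2 were also lower without overlap of the groups, at an unadjusted p of 0.00703 and 0.0086 from limma. With the GC trend removed 3 were called lower, namely CCND3, CCNE1 and CDK2. The 16 genes for ubiquitin ligase parts that act on the inhibitors or cyclins gave 0 calls, with 3 at an unadjusted p under 0.05, and a median of 0.06. With the GC trend removed 1 of them was called higher and 1 lower. Of the 143 genes, the pattern over the 4 libraries most like that of CDKN2A was found in this list, for FBXO31, FZR1 and CDC20. Their centred log2(FPKM + 1) values differed from those of CDKN2A by a root mean square of 0.024, 0.028 and 0.033. All 3 had both knockout libraries above both WT libraries, with ZCCHC4 KO1 replicate 1 the highest. Since they were picked for likeness to CDKN2A over these libraries, this order follows from the choice. Their GC contents were 58.8, 62.9 and 57.1 percent, beside 61.3 for CDKN2A, and the part of the GC trend in the pattern was not tested. FBXO31, an F-box protein that acts on cyclin D1, was at 6.61 and 7.34 FPKM in WT cells and at 10.55 and 9.01 in ZCCHC4 KO1. CDC20, an activator of the anaphase-promoting complex, was at 221.82 and 253.5 FPKM in WT cells and at 344.13 and 278.17 in ZCCHC4 KO1. FZR1, another activator of that complex, was at 17.63 and 20.71 FPKM in WT cells and at 27.37 and 24.56 in ZCCHC4 KO1.

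Known regulators of the CDKN2A locus gave 2 lower calls among 20 tested genes, with a median of 0.06. With the GC trend removed 3 of them were called lower, where 12.6 percent of all tested genes were. CDKN2B-AS1, also on this list, had no value in the data. TBX3, a T-box repressor of p14ARF and CDKN1A, fell from 10.09 and 9.45 FPKM in WT cells to 2.40 and 2.93 in ZCCHC4 KO1 (log2 fold change -1.56, standard error 0.196, adjusted p = 0.0151 from limma). ETS2, an activator of p16INK4a, fell from 61.59 and 61.13 to 30.56 and 33.30 FPKM (log2 fold change -0.92, adjusted p = 0.0198 from limma), and lost the call without WT replicate 1 (adjusted p = 0.0911) or WT replicate 2 (adjusted p = 0.0838). The polycomb genes of this list were not called. On 9p21, 4 of 8 neighbours of CDKN2A were tested and 0 were called, with 1 at an unadjusted p under 0.05. The 20 tested genes nearest to CDKN2A had a median log2 difference of -0.235, with 16 below 0 (5708 of all 10726 tested genes were), while CDKN2A itself was at 0.41. Around the other genes of the axis the medians ran from -0.275 for CDKN1A to 0.203 for CCND1, around which 14 of 20 neighbours were above 0.

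Of the signals upstream of the axis, 2 of 18 were called lower, with a median of -0.28. With the GC trend removed 3 of the 18 were called lower. TGFBR1 and TGFBR2 are the receptors of TGF-beta, which is known to induce CDKN2B and CDKN1A. TGFBR1 fell from 18.02 and 10.17 FPKM in WT cells to 1.23 and 2.36 in ZCCHC4 KO1 (log2 fold change -2.41, standard error 0.339, adjusted p = 0.0195 from limma). TGFBR2 fell from 10.52 and 9.33 to 2.20 and 3.54 FPKM (log2 fold change -1.52, adjusted p = 0.0264 from limma). Among 20 partners of ARF, p53 and p53 target genes, GDF15 was the 1 call, the median was -0.01 and 6 genes had an unadjusted p under 0.05. Of these 6, GDF15, PHLDA3 and PLK3 were higher in ZCCHC4 KO1, and CCNG1, ZMAT3 and DDB2 were lower. With the GC trend removed 2 of the 20 were called higher and 2 lower, where 6.8 and 12.6 percent of all tested genes were. GDF15 rose from 7.41 and 7.69 FPKM in WT cells to 22.37 and 15.07 in ZCCHC4 KO1 (log2 fold change 1.18, standard error 0.228, adjusted p = 0.0444 from limma), and it lost the call without WT replicate 1, WT replicate 2 or ZCCHC4 KO1 replicate 1 (adjusted p from 0.061 to 0.0737).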

How the data were processed

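RNA of 2 WT and 2 ZCCHC4 KO1 libraries was sequenced. The authors aligned reads with Bowtie2, estimated FPKM with RSEM and deposited 1 FPKM value per Entrez gene and library. The builds in the submitters' processing notes are versions of the human genome GRCh38, and the strand setting and read totals are not given in the sources used here. Groups came from the sample labels. Symbols and promoter windows came from RefSeq (GRCh38.p14), and 16384 of the 16658 identifiers matched a symbol. Transcript GC content and exon overlaps came from GENCODE v44.

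Genes with an FPKM of at least 1 in 2 libraries (10726) were tested with limma 3.58.1 (R 4.3.3, lmFit and eBayes with trend) on the log2(FPKM + 1) scale, without covariates, with Benjamini-Hochberg adjustment over all tested genes and a threshold of 0.05 on the adjusted p. Standard errors are the moderated ones of this fit. For the GC correction a natural spline of GC content with 4 degrees of freedom was removed from each library. E2F motifs and GC boxes were searched on both strands as exact letters. The letters of the sequence shared by CDKN2A and CDKN2B are not reported here.

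The 10 genes and all lists were chosen with earlier results of these data known. Of each list, up to 3 called genes with the smallest p were named, together with CDKN2D, CDKN1C, ZCCHC4, and the 3 genes most like CDKN2A. Alternatives changed the pseudocount, the filter, the scaling, the variance prior, the GC correction, the pairing, the threshold and the libraries used.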

Additional observations from a re-analysis of the deposited data

How the results depend on the processing

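Limits of these data are 2 libraries per group, 1 knockout line, unknown depth and a GC trend that ran in opposite directions between the libraries of each group. Of the 143 genes around the axis, limma called 10 (1 higher, 9 lower). The count was 2 without the filter on low values, where more genes enter the adjustment and 36 had an unadjusted p under 0.05, 16 with median-ratio scaling (2 higher, 14 lower), 20 with quantile normalization (3 higher, 17 lower) and 33 with the GC trend removed. The study used its thresholds (P under 0.05, FDR under 0.001 and a fold change of at least 2) with a test that it does not name. For limma the count at these thresholds was 0, where 42 had an unadjusted p under 0.05. With 1 library left out it ranged from 5 without WT replicate 1 to 34 without ZCCHC4 KO1 replicate 2, and the lone library of a group was assumed to vary like the other group. The cause was not tested. Over all tested genes, the calls were 161 higher and 480 lower, and 466 higher and 721 lower with quantile normalization. The median of all genes ranged from -0.134 without ZCCHC4 KO1 replicate 2 to 0.049 without ZCCHC4 KO1 replicate 1. All 10 calls kept their sign under every alternative. Their groups do not overlap, so leaving out a library could not change a sign. The filter, the variance prior and the pairing do not alter the difference at all. Without the filter, TBX3 and ETS2 kept the call, while CCND3, MCM6, MCM4, RRM2, GINS1, TGFBR1, TGFBR2 and GDF15 lost it (adjusted p from 0.0522 for CCND3 to 0.0966 for GDF15, limma). MCM4 also lost it with median-ratio scaling (adjusted p = 0.0519) and without the variance trend (adjusted p = 0.0653).

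Of the 10 genes of the axis, 0 were called (2 at an unadjusted p under 0.05 from limma). With a minimum FPKM of 5, 7 of them were tested and the count was 1 (7.13 percent of all tested genes called). The count was 1 with median-ratio scaling (9.42 percent), 2 with quantile normalization (11.1 percent) and 1 with the GC trend removed (19.4 percent). With 1 library left out, the log2 difference kept its sign for CDKN2A, CDKN1A, CDKN1B and CDK6, and its range crossed 0 for the other genes. Since the genes were chosen with these values known, nothing is read from these counts. CDKN2A lay above 98.3 percent of tested genes in WT, 98.9 percent without the filter, 97.63 percent with a minimum FPKM of 5 and 98.05 percent with the GC trend removed, and between 98.22 and 98.34 percent with 1 library left out. The difference of CDKN2D turned from 0.04 to -0.086 with the GC trend removed, and ranged from -0.10 to 0.18 with 1 library left out, being -0.097 when WT replicate 1 was dropped and -0.03 when ZCCHC4 KO1 replicate 1 was.

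The groups share replicate numbers, but same-numbered libraries deviated in opposite directions (Pearson correlation across genes -0.787), so equal numbers were not taken to pair the libraries. With the replicate number as a block, 9 genes around the axis and 0 of the 10 genes were called, beside 4.31 percent of all tested genes. GINS1 and MCM4 lost their calls with this block. With the pairing crossed, an alternative chosen after seeing the data, 83 of the 143 genes around the axis and 5 of the 10 genes were called, beside 49.4 percent of all tested genes.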
